A study of Mus musculus with 7 samples.

Results

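The cytochrome P450 genes of families 1 to 3, which encode the main drug-metabolizing enzymes of the liver, were examined in livers of control and LPS-treated mice. Members were all genes whose symbol was Cyp followed by 1, 2 or 3, a letter and a number, with pseudogenes marked -ps left out, which gave 61 of the 56691 genes counted. Poly(A) RNA of whole liver was sequenced in 4 samples labelled control and 3 samples of mice given lipopolysaccharide (LPS, a component of the bacterial outer membrane) intraperitoneally at 10 mg/kg and killed 24 h later. All were male C57BL/6J mice, 8 weeks old when bought and kept for 2 weeks. The control injection is not described in the labels, and mice given sulforaphane before LPS were not analysed here. Total counts were between 14991022 and 20500391 per sample.

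Cytochrome P450 enzymes of these families sit in the endoplasmic reticulum, carry a heme group and insert oxygen into drugs, toxins, steroids and fatty acids. They take electrons from the reductase encoded by Por, and many are made mostly in hepatocytes around the central vein. Their genes lie in clusters of close copies, and the receptors Ahr, Car (Nr1i3) and Pxr (Nr1i2) are known to switch many of them on.

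The label of the LPS group was checked with acute phase genes. Haptoglobin (Hp) was at 2669 ± 568 CPM in control (SD, n = 4) and at 27528 ± 4302 CPM in LPS-treated mice (SD, n = 3) and rose, where CPM is the count scaled to the TMM-adjusted library size, and Saa1, Saa2 and Saa3 rose by log2 fold changes of 7.99, 9.15 and 9.64. The albumin gene Alb was the most abundant of 21 hepatocyte markers, at 46978 CPM in control and 24665 CPM in LPS-treated mice.

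The samples were not evenly spaced. LPS replicates 2 and 3 were closer to each other than any other pair of replicates, with an SD of 0.102 for the log2 ratio of their counts over 1729 genes, against 0.294 to 0.578 for the other pairs. LPS replicate 1 stood apart from them: the summed CPM of 15 macrophage and Kupffer cell markers was 844 in replicate 1 and 253 and 258 in replicates 2 and 3. Mitochondrially encoded genes took 23.7%, 14.6%, 7.48% and 8.96% of the counts in control replicates 1 to 4 and 6.45%, 3.83% and 3.94% in LPS replicates 1 to 3. The part of these differences in the P450 results was not tested beyond the fits given here. With LPS replicates 2 and 3 summed into 1 sample, 22 in place of 24 P450 genes were called lower and 3 remained higher, and the log2 fold changes of the 27 called genes moved by -0.11 to 0.33. A figure legend of the study gives the groups as mice, with n = 4 for control and n = 3 for LPS. The reason for the closeness of replicates 2 and 3 was not tested; if they were not separate mice, the SD of the LPS group and the p-values would overstate the replication.

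P450 mRNA as a whole was lower after LPS. The summed CPM of the 61 genes was 19381, 23319, 26605 and 21630 in control replicates 1 to 4 and 10019, 10785 and 10880 in LPS replicates 1 to 3. Every LPS value lay below every control value, and the control mean was 2.15 times the LPS mean. As a share of all counts, P450 genes took 1.83%, 2.45%, 2.77% and 2.41% in control mice and 1.06%, 0.979% and 0.981% in LPS-treated mice. In whole liver, fewer hepatocytes and less P450 RNA per hepatocyte cannot be told apart. The summed CPM of the 21 hepatocyte markers, which hold no P450 gene, was 92721, 92729, 112142 and 99324 in control mice and 61970, 68786 and 68875 in LPS-treated mice. Alb is a large part of this sum. Counted gene by gene, 14 of the 21 were not called, 5 were lower, with Fabp1 (-2.78) and G6pc (-2.44) the lowest, and 2 higher, Tat (1.4) and Tdo2 (1.30), and the median log2 fold change of the 21 was -0.20; of all genes tested, 7.31% were lower and 7.81% higher. Alb was short of the fold threshold at -0.93 and was called lower without control replicate 1 (-1.02) or 2 (-1.03).

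Of the 61 genes, 40 had enough counts to be tested, 13 had no count in any sample and 8 had a few counts and were filtered out. Calls needed both an adjusted p below 0.05 and a log2 fold change beyond 1 in either direction (edgeR quasi-likelihood test, Benjamini-Hochberg adjustment over 13683 genes). Of the 40 tested genes, 24 were lower, against 7.31% of all genes tested, and 3 were higher, against 7.81%. All LPS samples lay below all control samples for 25 of the 40, against 17.4% of all genes, and above them for 3, against 18.1%. The median log2 fold change of the 40 was -1.96, and that of all genes tested was -0.01. Genes high in 1 group pass the count filter more easily, and 33 of the 40 had at least 10 counts in every sample.

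**Figure D1:**
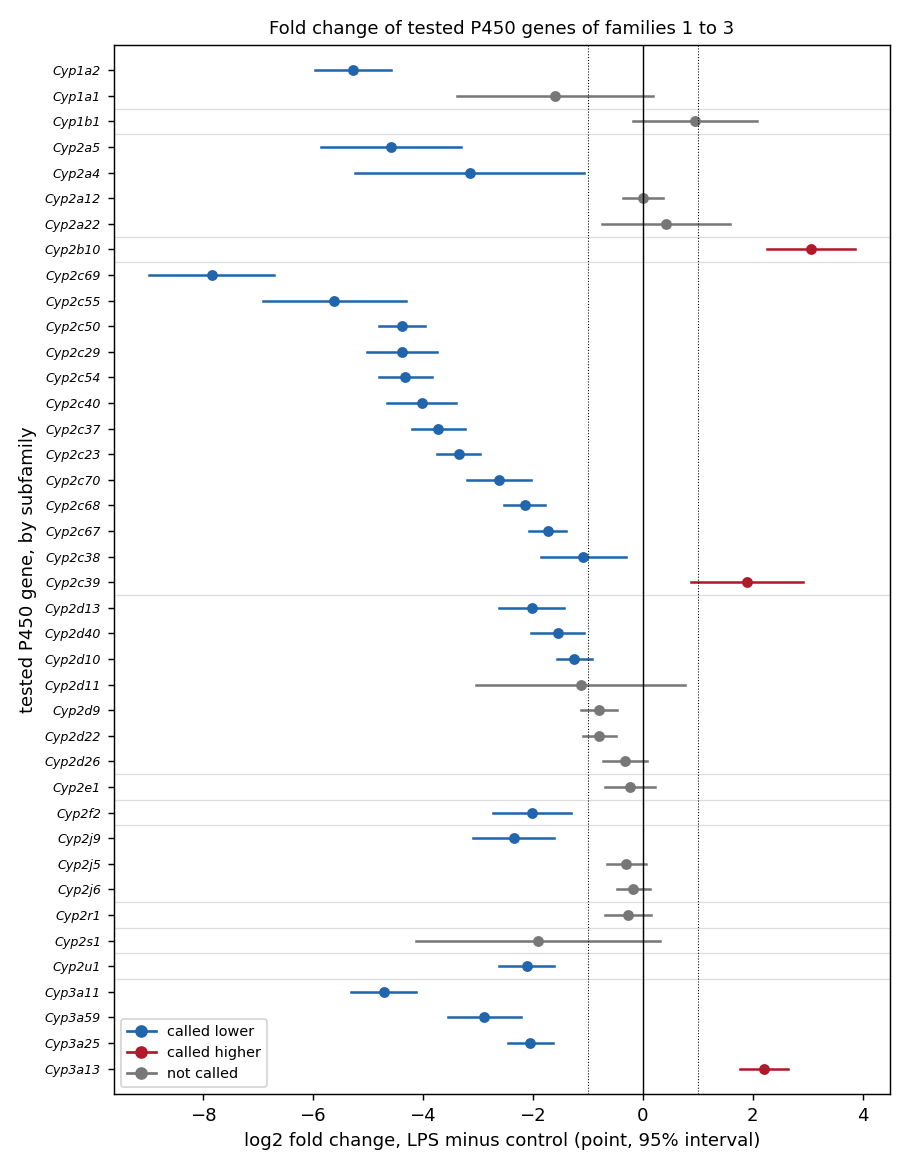
Log2 fold change (LPS minus control, x axis) of the 40 tested P450 genes, grouped by subfamily, with points for estimates and lines for 95% intervals. Dotted lines mark a log2 fold change of 1 in each direction; 24 genes were called lower (blue), 3 higher (red) and 13 were not called (grey).

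Subfamily 1a, which oxidizes aromatic amines and caffeine, had the largest fall of any subfamily sum with a tested gene. Cyp1a2 (ENSMUSG00000032310) was at 909, 778, 774 and 683 CPM in control mice and 31.8, 13.4 and 15.6 CPM in LPS-treated mice. The groups were far apart, with LPS replicate 1 the highest of its group, and the log2 fold change was -5.27 (SE 0.31, adjusted p = 1.42e-07, edgeR quasi-likelihood test). Its neighbour Cyp1a1, the classical target of Ahr, was near 1 CPM in control mice and was not called (log2 fold change -1.60, 95% interval -3.38 to 0.19); without LPS replicate 2 it was called lower. Cyp1b1, an estrogen hydroxylase found mostly outside the liver, had 1.63, 0.631, 0.489 and 1.31 CPM in control and 2.35, 1.42 and 2.12 CPM in LPS-treated mice. These ranges overlapped and Cyp1b1 was not called (log2 fold change 0.95, 95% interval -0.17 to 2.08).

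Subfamily 2c, whose enzymes oxidize drugs and arachidonic acid, had the most tested genes: 12 of 13 were lower and 1 was higher. Its summed CPM was 4709, 5029, 7140 and 5285 in control mice and 636, 573 and 572 in LPS-treated mice. Cyp2c29, the member with the highest mean CPM over all 7 samples, was at 774, 1197, 1857 and 1389 CPM in control and 69.8, 61.2 and 57.2 CPM in LPS-treated mice. After LPS, Cyp2c70, Cyp2c67 and Cyp2c68 had higher CPM than Cyp2c29. Control replicate 3 was the highest and replicate 1 the lowest, yet the lowest control value was far above the LPS values (log2 fold change -4.38, SE 0.29).

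Cyp2c50 was at 1230, 1041, 1212 and 980 CPM in control and 61.8, 51.3 and 47.6 CPM in LPS-treated mice, and Cyp2c70, which converts bile acids to muricholic acids in mice, at 822, 820, 1759 and 1069 and at 170, 191 and 184 CPM. Both sets of groups were separate, with log2 fold changes of -4.38 (SE 0.19) for Cyp2c50 and -2.62 (SE 0.27) for Cyp2c70. The lowest log2 fold change of all members was that of Cyp2c69, from 25.7, 32.7, 59.5 and 41.6 CPM to 0.369, 0.0644 and 0 CPM (-7.84, SE 0.52). Cyp2c55 went from 6.09, 8.77, 18.9 and 11.2 CPM to 0.277, 0 and 0.374 CPM (log2 fold change -5.61, SE 0.60). Both were near the limit of counting after LPS, so the size of their falls is uncertain.

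The other 2c genes called lower had log2 fold changes of -4.32 (Cyp2c54), -4.02 (Cyp2c40), -3.72 (Cyp2c37), -3.35 (Cyp2c23), -2.15 (Cyp2c68), -1.73 (Cyp2c67) and -1.08 (Cyp2c38). Cyp2c38 was the exception among the 24 lower genes in that its groups overlapped, and it was not called with LPS replicates 2 and 3 summed (adjusted p = 0.144, edgeR quasi-likelihood test). Cyp2c39 was the single member of the subfamily that rose, at 0.920, 0.694, 1.04 and 0.484 CPM in control and 3.64, 1.68 and 3.42 CPM in LPS-treated mice. Its groups did not overlap (log2 fold change 1.9, SE 0.47, adjusted p = 0.00993 from the edgeR quasi-likelihood test), but its level was low, and without LPS replicate 3 the adjusted p of that test was 0.0525.

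In subfamily 3a, which metabolizes the widest range of drugs, 3 tested genes were lower and 1 was higher. Cyp3a11 (ENSMUSG00000056035), the main 3a enzyme of mouse liver, was at 2988, 3349, 4177 and 3002 CPM in control and 178, 112 and 96.5 CPM in LPS-treated mice. Its log2 fold change was -4.71 (SE 0.27, adjusted p = 1.10e-07, edgeR quasi-likelihood test). Cyp3a13 (ENSMUSG00000029727), which is also expressed in intestine, was at 93.9, 150, 180 and 161 CPM in control and 652, 684 and 690 CPM in LPS-treated mice. Its groups were separate in the other direction (log2 fold change 2.21, SE 0.20, adjusted p = 4.54e-06 from the same edgeR test).

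The pair exchanged places within the subfamily. Per kilobase of transcript, Cyp3a11 was at 1442 ± 238 CPM (SD, n = 4) and Cyp3a13 at 49.4 ± 12.5 in control mice, and at 55.0 ± 18.4 (SD, n = 3) and 229 ± 6.88 in LPS-treated mice. Cyp3a25 and Cyp3a59 fell by 2.04 and 2.88 on the log2 scale.

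**Figure D2:**
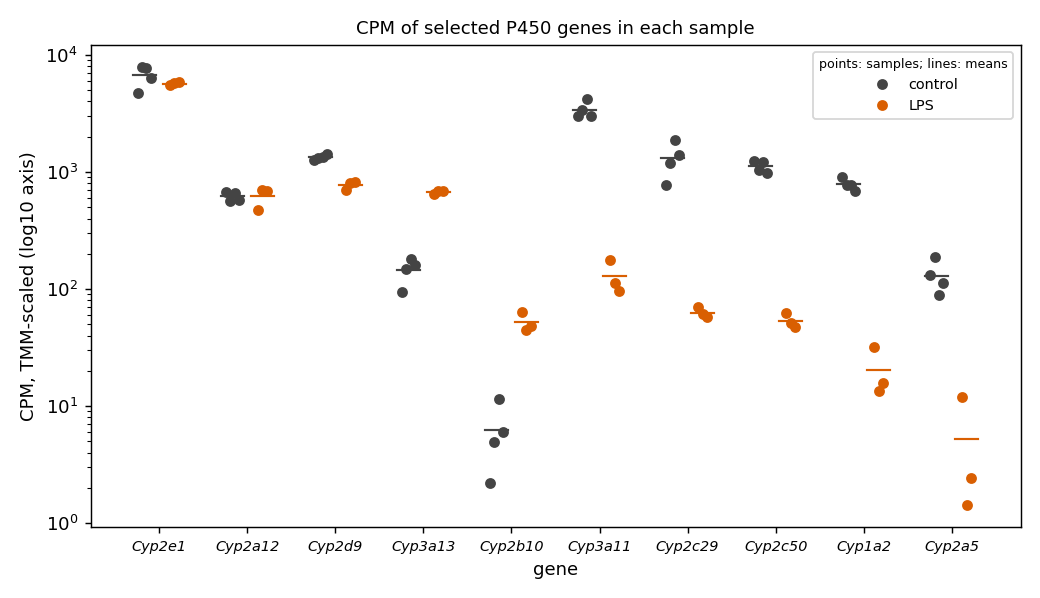
CPM (log10 axis) of 10 P450 genes in each control (grey) and LPS (orange) sample, with lines for group means. Cyp3a13 and Cyp2b10 lay higher in all LPS samples, Cyp2e1 and Cyp2a12 overlapped, and the other 6 genes lay lower.

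Cyp2b10, the classical target of Car that is induced by phenobarbital, had the largest rise among the members. It was at 2.19, 4.99, 11.5 and 6.05 CPM in control and 64.0, 44.7 and 48.0 CPM in LPS-treated mice. No values overlapped (log2 fold change 3.07, SE 0.37, adjusted p = 5.73e-05, edgeR quasi-likelihood test). Of the other 4 genes of subfamily 2b, 3 had no counts, and Cyp2b9 had too few to be tested.

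Subfamily 2a split into a pair that was called lower and a pair that was not called. Cyp2a5, the coumarin hydroxylase, was at 131, 186, 89.2 and 113 CPM in control and 11.9, 1.42 and 2.43 CPM in LPS-treated mice. The groups were separate, with LPS replicate 1 well above replicates 2 and 3 (log2 fold change -4.58, SE 0.58). Its close copy Cyp2a4, near 1 CPM in control mice, was called lower (-3.15), but not with LPS replicates 2 and 3 summed (adjusted p = 0.0887, edgeR quasi-likelihood test). Nor was Cyp2a4 called without control replicate 1 or 3 or LPS replicate 2 or 3. Its log2 fold changes in those fits were -2.7, -2.9, -2.8 and -2.6. Cyp2a12, a steroid and bile acid hydroxylase, was at 673, 565, 662 and 578 CPM in control and 477, 703 and 686 CPM in LPS-treated mice. Its ranges overlapped, with LPS replicate 1 the lowest of all samples, and its log2 fold change was 0.01 (95% interval -0.36 to 0.37), with a sign that changed between scalings. Cyp2a22 had a log2 fold change of 0.42 and was not called.

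In subfamily 2d, steroid and drug hydroxylases, 3 of 7 tested genes were lower. Cyp2d9, its most abundant member, was at 1272, 1320, 1352 and 1423 CPM in control and 696, 807 and 818 CPM in LPS-treated mice. The groups did not overlap and the adjusted p was 0.00175 (edgeR quasi-likelihood test), but the log2 fold change of -0.79 (SE 0.15) was short of the threshold of 1. Cyp2d22 had the same log2 fold change of -0.79. Cyp2d13, listed by RefSeq as a transcribed pseudogene, Cyp2d40 and Cyp2d10 were called lower, with log2 fold changes of -2.02, -1.54 and -1.24. Cyp2d26 (-0.32) and Cyp2d11 (-1.13) were not called. Cyp2d11 was scarce, with means of 0.731 CPM in control and 0.319 CPM in LPS-treated mice. The value of Cyp2d11 was -2.17 without LPS replicate 1 and -0.59 without LPS replicate 2.

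Cyp2e1 (ENSMUSG00000025479), which oxidizes ethanol and acetaminophen, was the most abundant member in every sample, also per kilobase. It was at 4747, 7933, 7709 and 6299 CPM in control and 5503, 5731 and 5822 CPM in LPS-treated mice. The LPS values lay inside the control range, and the log2 fold change was -0.23 (95% interval -0.68 to 0.22, adjusted p = 0.460, edgeR quasi-likelihood test). In subfamily 2j, fatty acid epoxygenases, Cyp2j5 was at 501, 577, 684 and 688 CPM in control and 437, 531 and 528 CPM in LPS-treated mice, and Cyp2j6 at 116, 101, 89.5 and 94.3 and at 82.7, 96.6 and 88.0 CPM. The groups of both overlapped, with log2 fold changes of -0.30 (95% interval -0.65 to 0.06) and -0.17 (95% interval -0.47 to 0.14). Cyp2j9 was lower (log2 fold change -2.35).

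The subfamilies with 1 member also differed. Cyp2f2, known for activating naphthalene, was at 467, 315, 846 and 765 CPM in control and 99.8, 171 and 172 CPM in LPS-treated mice. Cyp2u1, a fatty acid hydroxylase, was at 80.5, 68.5, 44.5 and 46.6 CPM in control and 13.4, 11.9 and 16.4 CPM in LPS-treated mice. Neither gene's groups overlapped, and both fell (log2 fold changes -2.02, SE 0.33, and -2.11, SE 0.23). Cyp2r1, a vitamin D hydroxylase, was at 10.3, 13.7, 16.1 and 16.2 CPM in control and 12.0, 12.4 and 10.8 CPM in LPS-treated mice. Cyp2s1 had 2.69, 0.757, 0.244 and 0.387 CPM in control and 0.553, 0 and 0.187 CPM in LPS-treated mice. Both overlapped and were not called (log2 fold changes -0.26 and -1.91). The value of Cyp2s1 was -3.30 without LPS replicate 1 and -1.38 without LPS replicate 2. Cyp2s1 could be tested in 4 of the 7 fits with a sample left out.

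The make-up of P450 counts shifted with these differences. Cyp2e1 took 24.5%, 34.0%, 29.0% and 29.1% of the summed P450 counts in control mice and 54.9%, 53.1% and 53.5% in LPS-treated mice, although its own CPM was not called. A share depends on the other genes in the sum. The mean share of subfamily 2c went from 24.3% to 5.64%, that of 3a from 18.4% to 9.13% and that of 1a from 3.53% to 0.198%. The shares of 2d, 2a and 2j went from 15% to 17.5%, from 3.36% to 5.93% and from 3.23% to 5.59%. Within 3a, Cyp3a11 went from 14.8% to 1.24% and Cyp3a13 from 0.637% to 6.40%.

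**Figure D3:**
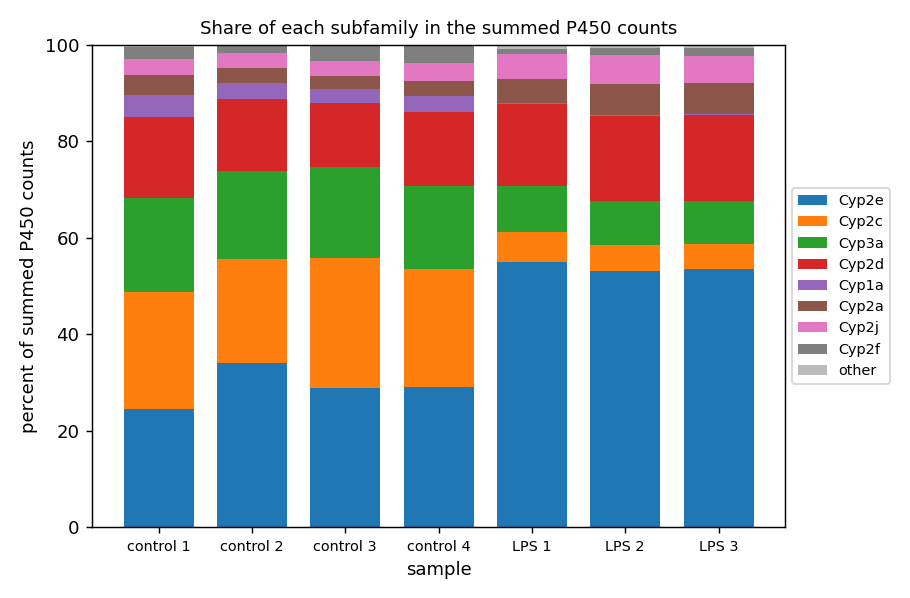
Percent of the summed P450 counts (y axis) taken by each subfamily in each of 7 samples (x axis), as stacked bars. Cyp2e1, the only gene of subfamily 2e, took 24.5% to 34.0% in control mice and 53.1% to 54.9% in LPS-treated mice.

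Per kilobase of transcript, the order of the genes changed between the groups. In control mice Cyp2e1 (3640 ± 804 CPM per kilobase, SD, n = 4) was followed by Cyp3a11 (1442 ± 238) and then by Cyp2d9 (784 ± 37.1), Cyp2c29 (732 ± 252), Cyp2c70 (651 ± 258) and Cyp2c50 (616 ± 68.5). The SDs of Cyp2c29 and Cyp2c70 span the means of the last 4 genes, and their order was not tested. In LPS-treated mice Cyp2e1 (3102 ± 89.7, SD, n = 3) was followed by Cyp2d9 (452 ± 39.5), Cyp2a12 (370 ± 74.8), Cyp2d26 (301 ± 47.6) and Cyp3a13 (229 ± 6.88). Lengths were those of 1 principal transcript per gene, and Cyp2d13 had none. The order depends on that choice. With the length of all annotated exons, which was computed first, the control share of P450 counts per kilobase was 7.15% in place of 12.2% for Cyp3a11, which stayed second, and Cyp2c70 (5.97%) came before Cyp2d9 (5.51%). In LPS-treated mice Cyp2a12 went from 6.61%, the third place, to 3.87%, behind Cyp2d26, Cyp3a13, Cyp2d10 and Cyp2j5, while Cyp2e1 and Cyp2d9 stayed first and second.

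Many members are near copies of each other, and the counting of reads that match more than 1 gene is not given in the sources used here, so values of single copies are uncertain. Coding sequences were 98.4% identical between Cyp2a4 and Cyp2a5, 97.7% between Cyp2c67 and Cyp2c69 and 96.1% between Cyp2c37 and Cyp2c50. Sums over genes joined at 90% identity do not depend on how reads were divided inside a group. Any reads left uncounted because they match more than 1 gene would still be missing from these sums. The sum of Cyp2c37, Cyp2c50 and Cyp2c54 was 1929, 1775, 1879 and 1575 CPM in control and 116, 82.3 and 85 CPM in LPS-treated mice. That of Cyp2c40, Cyp2c67, Cyp2c68 and Cyp2c69 was 721, 797, 1030 and 799 and 207, 181 and 193 CPM. Neither sum overlapped between the groups. The sum of Cyp2c38 and Cyp2c39, which are 94.2% identical and were called in opposite directions, was 20.0, 43.4, 27.3 and 27.7 CPM in control and 26.5, 12.4 and 10.5 CPM in LPS-treated mice and did overlap. Cyp3a13 and Cyp2e1 had no member at 85% identity or more.

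Of the 61 members, 52 had a promoter in the RefSeq table (build GRCm38.p6), with 55 windows of 250 bases before to 50 bases after the gene start. The letters CAAAGTCCA, known as an Hnf4a site, were on either strand in 18.2% of the 55 windows and in 0.475% of all 32851 windows. TATAAA was in 50.9% against 13.6% of all windows, AGGTCA in 34.5% against 16.3%, TTGCNNAA in 27.3% against 10.8% and GTTAAT in 10.9% against 7.10%. AGTTCA was in 14.5% against 14.0%, GCGTG in 18.2% against 32.4% and TTCNNNGAA in 3.64% against 8.30%. Close copies share promoter sequence, so windows are not independent, and a match is not evidence of binding. Promoters are shown for the 3a pair that moved in opposite directions, for a pair of close 2c copies that fell together and for Cyp2b10, 5′ to 3′ with matches to any of these 8 motifs in capitals. Cyp3a13 had no match.
Cyp3a11 (chr5:145879805-145880104, minus strand): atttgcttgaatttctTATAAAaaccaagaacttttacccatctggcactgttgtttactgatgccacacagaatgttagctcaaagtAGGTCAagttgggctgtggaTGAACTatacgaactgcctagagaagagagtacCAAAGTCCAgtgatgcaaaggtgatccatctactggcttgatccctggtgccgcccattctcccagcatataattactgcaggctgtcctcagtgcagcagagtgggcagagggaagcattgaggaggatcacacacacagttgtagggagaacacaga
Cyp3a13 (chr5:137921570-137921869, minus strand): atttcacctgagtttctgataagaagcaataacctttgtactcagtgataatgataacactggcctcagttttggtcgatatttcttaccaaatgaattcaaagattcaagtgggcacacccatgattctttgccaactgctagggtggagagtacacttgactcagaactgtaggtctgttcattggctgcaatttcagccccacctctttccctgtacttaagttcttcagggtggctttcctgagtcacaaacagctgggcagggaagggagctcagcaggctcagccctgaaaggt
Cyp2c37 (chr19:39992174-39992473, plus strand): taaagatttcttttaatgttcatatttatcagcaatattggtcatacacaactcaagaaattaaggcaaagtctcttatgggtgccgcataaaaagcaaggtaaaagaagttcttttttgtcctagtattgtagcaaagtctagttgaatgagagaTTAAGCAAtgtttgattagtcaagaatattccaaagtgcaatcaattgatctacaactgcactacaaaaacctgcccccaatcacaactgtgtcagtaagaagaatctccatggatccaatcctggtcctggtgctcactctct
Cyp2c50 (chr19:40089429-40089728, plus strand): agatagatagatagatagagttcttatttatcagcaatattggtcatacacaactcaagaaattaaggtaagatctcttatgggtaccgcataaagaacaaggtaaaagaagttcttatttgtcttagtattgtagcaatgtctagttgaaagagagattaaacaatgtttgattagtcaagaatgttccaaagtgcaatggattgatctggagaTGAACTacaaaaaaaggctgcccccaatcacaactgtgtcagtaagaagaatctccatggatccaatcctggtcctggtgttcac
Cyp2b10 (chr7:25897408-25897707, plus strand): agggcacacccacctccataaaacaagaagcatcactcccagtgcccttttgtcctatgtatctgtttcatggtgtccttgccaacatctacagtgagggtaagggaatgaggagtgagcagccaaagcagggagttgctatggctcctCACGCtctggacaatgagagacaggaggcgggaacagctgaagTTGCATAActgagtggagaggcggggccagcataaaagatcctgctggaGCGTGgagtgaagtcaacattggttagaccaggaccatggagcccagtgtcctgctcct

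Genes that work with P450 enzymes were examined as lists, whose counts are to be read against the 7.31% lower and 7.81% higher among all genes tested. Of 8 partner enzymes, 5 were lower and 1 was higher; without LPS replicate 1, 3 were lower, since Pgrmc1 was at -0.92 in place of -1.01 and Cyb5b at -0.88 in place of -1.05. Near the threshold, Pgrmc1 was also not called without control replicate 2, nor Cyb5b without control replicate 3 or 4. Por, the reductase, rose: it was at 62.8 ± 20.8 CPM in control mice (SD, n = 4) and at 250.5 ± 44.1 CPM in LPS-treated mice (SD, n = 3), a log2 fold change of 1.99, while Cyb5r3 and Cyb5a, of the cytochrome b5 electron route, fell by 1.66 and 1.59 on the log2 scale. Of 13 genes of heme synthesis and breakdown, 3 were lower and 2 higher. Alas1, the first enzyme of heme synthesis in liver, rose (log2 fold change 2.08), although control replicate 3, at 333 CPM, stood well above the other controls at 56.4 to 75.3 CPM; without it the log2 fold change was 3.11. Hmox1, which breaks heme down, rose by a log2 fold change of 3.45, and Alas2 (-1.41) and Alad (-1.07) fell. Without control replicate 1 or 2, Alas2 was the only 1 of the 3 called lower: Alad was at -0.91 and -0.94 and Blvrb, at -1.05 with all samples, at -0.90 and -0.93. Blvrb was also not called without LPS replicate 3 (-0.98).

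Among 16 tested nuclear and xenobiotic receptors and their partners, none was called at both thresholds by edgeR or by DESeq2, while 5 had an unadjusted p below 0.05 in edgeR and 4 an adjusted one. Nr1i3 had an adjusted p of 8.07e-04 (edgeR quasi-likelihood test) with a log2 fold change of -0.85, and Hnf4a had 0.00960 with 0.74. Ahr, Nr1i2 and Rxra had log2 fold changes of 0.30, 0.32 and 0.30, with overlapping groups. Of 21 other transcription factors and signalling genes tested, 5 were lower and 2 higher, again beside 7.31% and 7.81% of all genes. Bcl6 (-2.00) fell, and Cebpd (2.34) and Stat3 (1.66) rose. Onecut1 had a log2 fold change of -2.19 (SE 0.63) that depended on control replicate 3, at 25.8 CPM against 3.03 to 7.50 CPM in the other controls: it was -1.16 without that replicate. Foxa1 likewise went from -1.20 to -0.54 and was not called. When LPS replicate 1, 2 or 3 was left out, 3 of the list were lower, since neither Onecut1 (adjusted p of 0.0655, 0.0819 and 0.0604, edgeR quasi-likelihood test) nor Foxa1 (0.112, 0.111 and 0.112) was called. Of 14 tested non-P450 targets of Ahr, Car and Pxr, 5 were lower and 2 higher: Gstm1 and Ces2a fell by 3.48 and 2.05 on the log2 scale, and Tiparp and Sult1d1 rose (1.52 and 1.31).

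Position in the liver lobule was followed with non-P450 genes, again beside 7.31% lower and 7.81% higher among all genes. Of 18 pericentral genes, 7 were lower and 1 was higher. With 1 sample left out, 6 to 8 were lower. Glul, glutamine synthetase of the innermost hepatocytes, fell by 2.95 and Aldh3a2 by 2.37 on the log2 scale, and Ang rose (1.42). Of 19 periportal genes, 5 were lower and 7 higher. Without control replicate 1, 5 were higher, since Ctsc (0.90) and Pck1 (0.98) were not called. Hsd17b6 and Otc fell (-3.21 and -2.01), and Sdsl rose (4.01). The median log2 fold changes were -0.84 for the pericentral and 0.34 for the periportal list, and a difference between the lists was not tested.

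Markers of other cells were counted in the same way, beside 7.31% lower and 7.81% higher among all genes. Of 15 neutrophil markers, 11 were tested and were higher, but this count is no measure of how common a rise was: the markers were scarce in controls, with Retnlg, Mmp8, Ngp and Ltf at 3 counts or fewer in each control, so that such genes could pass the count filter only through the LPS group. The summed CPM of the 15 was 9.20, 7.89, 5.26 and 4.94 in control and 302, 210 and 208 in LPS-treated mice. S100a9 was the most abundant, and Mpo was at 3 counts or fewer in all samples. Of 15 macrophage and Kupffer cell markers, 6 were higher and 2 lower, but without LPS replicate 1, 5 were higher and 5 lower: C1qb went from 1.21 to 0.58 and was not called, and Cd5l, Timd4 and Vsig4, not called with all samples, were lower (-3.04, -3.52 and -1.92). Their sum was 212, 295, 263 and 187 CPM in control mice, with Clec4f the highest there at a mean of 54.4 CPM. Marco had the highest mean over all 7 samples through LPS replicate 1 (410 CPM, against 66.5 and 65.6 in replicates 2 and 3, where Lyz2 was higher at 69.3 and 74.1 CPM), and its log2 fold change of 5.62 was 4.17 without that replicate. Of endothelial markers 1 of 13 was lower and 2 higher, of stellate cell markers 2 of 12 lower and 1 higher and of bile duct markers 1 of 6 higher. The endothelial and stellate counts depended on single samples. For endothelial markers, 2 were lower without control replicate 1 or 3 or LPS replicate 1, with Kdr gained, and 1 was higher without LPS replicate 1, with Pecam1 lost. For stellate cell markers, 1 was lower without control replicate 4 or LPS replicate 2, and 0 were higher without control replicate 2 or 3 or LPS replicate 1, when Rgs5 was lost; Lrat was not called without control replicate 4 or LPS replicate 1 or 2. The part of these cells in the P450 results was not tested.

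Of 25 tested P450 genes of the other families, 7 were lower and 5 higher, beside 7.31% and 7.81% of all genes, with a median log2 fold change of -0.61. With 1 sample left out, 6 to 8 were lower and 4 to 6 higher. Cyp4f18, called higher with all samples, was not called without control replicate 2 or 4 or LPS replicate 1, 2 or 3. A difference from families 1 to 3 was not tested. Cyp17a1, a steroid hydroxylase, and the fatty acid hydroxylase Cyp4a14 rose (7.56 and 2.70), and Cyp4f14 and Cyp7a1, the latter the rate-limiting enzyme of bile acid synthesis, fell (-2.62 and -2.12). Without LPS replicate 1 the log2 fold change of Cyp7a1 was -3.42.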

How the data were processed

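RNA was sequenced from 4 control and 3 LPS-treated liver samples as strand-specific poly(A) libraries. The deposited values are unnormalized read counts for each gene, made by the authors. The submitters' processing notes name cutadapt 1.9.1, HISAT2 2.2.1, HTSeq 0.6.1, DESeq2 1.34.0 and build GRCm39; the handling of reads matching more than 1 gene is not given in the sources used here. The members and gene lists were chosen with earlier results of these data known.

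From these counts, LPS was compared with control in R 4.3.3 with edgeR 4.0.16 (filterByExpr, TMM, quasi-likelihood test with no covariate, Benjamini-Hochberg over 13683 genes). The standard error was derived from the F statistic. On simulated data, 95% of genes planted at a log2 fold change of 1.5 were recovered, and 2.99% of calls were false (13462 genes). The simulation gave all genes the same dispersion, and few genes were planted. These percentages are therefore not the recovery or the false-call rate of the real data. No p was computed for sums or shares. DESeq2 1.42.0, other scalings, filters and thresholds, a replicate block and leaving out each sample were tried.

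Genes named with values in every sample were the most abundant of each subfamily, the 6 most abundant, the 6 lowest called with at least 10 CPM in controls, those called higher and the 3 nearest to no change with a mean of at least 10 CPM; of each list, the 2 lowest and 2 highest called were named, except 1 gene that is not reported here and except the lists of other cells, which are given by counts, with lymphocyte markers not reported. Alb, genes of other P450 families, genes of other cells and genes named for a call that changed without 1 sample were named after their values were seen. Some choices were made after results were seen. Lengths were first taken as all exons of a gene in GENCODE M21 and then, after those values were seen, as 1 principal transcript, and results with both are given. The 90% identity groups, the promoters shown and the values and counts of listed genes with a sample left out were also chosen then. A planned search of protein sequences was not run, since no protein table was used here. The libraries had no molecular identifiers, so reads may repeat molecules.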

Additional observations from a re-analysis of the deposited data

How the results depend on the processing

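The 24 lower and 3 higher P450 genes remained called with RLE factors, with total counts without scaling factors and with mitochondrial genes left out. DESeq2 and no count filter added Cyp2b9, for 25 lower. A minimum of 10 counts in every sample left 21 lower, since Cyp2a4, Cyp2c55 and Cyp2c69 could not be tested. An adjusted p threshold of 0.01 left 22. Leaving out each sample gave 22 to 24 lower and 2 to 3 higher: Cyp2a4, Cyp2c38 and Cyp2c39 were the genes lost, and Cyp1a1 was gained without LPS replicate 2. Without LPS replicate 1 the log2 fold changes of Cyp2c69, Cyp2a5, Cyp2a4 and Cyp2c38 were larger falls, at -9.99, -6.07, -5.36 and -1.70. Over all genes, 693 were higher with at least 10 counts in every sample, and 1773 were lower and 1825 higher without a fold threshold, where fewer genes were tested and the threshold was looser, respectively. Total counts moved the median log2 fold change of all genes from -0.01 to -0.13.

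Deviations of same-numbered samples had correlations of 0.181, -0.062 and 0.066, and those of differently numbered samples ranged from -0.141 to 0.097. So few values cannot show whether the replicate numbers paired the mice. With the number as a replicate block, 23 genes were lower (without Cyp2c38) and 3 higher.

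Cyp2a12 changed sign: its log2 fold change was -0.12 with total counts, -0.01 without mitochondrial genes, -0.02 with at least 10 counts, -0.04 with the replicate block, -0.07 with LPS replicates 2 and 3 summed and -0.09 to 0.17 with each sample left out. The sum of subfamily 2t, which is Cyp2t4 with too few counts to test, had a log2 ratio of -0.47 to 1.36 with each sample left out, except that without LPS replicate 3 no LPS count was left and no ratio could be given. The cause was not tested. The change in mean share of Cyp2c38 was upward in counts and per kilobase of transcript but downward per kilobase of all exons. No other tested gene's share turned. The rise in counts rested on LPS replicate 1. Cyp2c38 took 0.228% of P450 counts there and 0.0992% and 0.0647% in LPS replicates 2 and 3, against a control mean of 0.127%. The change in share of Cyp3a11 went from -13.6 points to -11.1 with the transcript length and -6.59 with all exons, the length chosen first. Depth limits the genes near 1 CPM.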
